A study of Mus musculus with 74 samples.

Results

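Zfp58 and Zfp595 are KRAB zinc finger proteins (KRAB-ZFPs) whose genes lie close together on mouse chromosome 13, and their binding sites are described here by the 284 ChIP-seq peaks deposited under their names, 148 for Zfp58 and 136 for Zfp595, out of 53255 peaks in the whole table. The peaks were taken by the name given to each of them and not by a measured value, while the pair of proteins was picked with earlier results of these data known. Both proteins were overexpressed in F9 EC cells, a mouse embryonal carcinoma line, with a C-terminal 3XHA tag, from codon-optimized reading frames in a puromycin-selected vector, and resistant clones were pooled. Chromatin was immunoprecipitated with the HA antibody ab9110 by the O'Geen protocol, reads were mapped with Bowtie, and peaks were kept against the F9 input and the HA control ChIP. Another 28 KRAB-ZFPs were assayed in F9 EC cells against the same control and are called the other F9 HA KRAB-ZFPs below. Of these, 21 also carried the tag at the C-terminus. All of them shared the cell line, the antibody and the control, but not the calling threshold. Of the 30 samples, 19 were called at a p under 1e-10 and a fold over 20, Zfp58 among them. Another 4, Zfp595 among them, were called at this p and a fold over 10, and 7 at a looser p and a fold over 10. The values of Zfp58 and Zfp595 are set beside those of the others under these thresholds. Peak numbers, folds, shared loci and their ranks depend on them. Each protein had 1 ChIP sample, so no difference between the proteins has a replicate check, and the intervals below cover counting error only. The sequencing depth of the libraries is unknown here, and a missing peak does not show that a site was unbound. No Zfp58 peak had a deposited false discovery rate at or under 5%, which applies to every Zfp58 count below. A peak list also gives no way to check the cell type by marker genes.

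A KRAB-ZFP reads DNA with an array of C2H2 zinc fingers, each of which contacts a few neighbouring bases, so that a long array can recognise a long and specific sequence. The KRAB domain recruits KAP1 (Trim28), a scaffold for histone methyltransferase and heterochromatin proteins, and many KRAB-ZFPs silence retrotransposons in this way in early embryos. Young KRAB-ZFP genes lie in clusters of recent duplicates, and neighbours in a cluster can differ in their fingers and in what they bind.

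The Zfp58 peaks shared a sequence at their summits. Among 8-base words on either strand, TGTGTCAA, whose reverse complement is TTGACACA, exceeded its share in flanking windows most. It was chosen on the odd-numbered chromosomes, where it lay within 50 bp of the summit in 38 of 79 peaks (48.1%). On the chromosomes that took no part in the choice, it lay there in 27 of 69 peaks, a share of 39.1% (95% Wilson interval 28.5 to 50.9%). Windows of the same length centred 500 bp to either side of those summits held it in 3 of 138 cases (2.17%). Among the summit words found in the same way for all 30 KRAB-ZFPs, that of Zfp58 had the 7th largest held-out share. The word lay within 50 bp of the summit in 1 of 136 Zfp595 peaks, and in 17 of 544 peaks of Zfp808 (3.13%), the largest share among the other F9 HA KRAB-ZFPs.

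To see how far the shared sequence reached, the 38 stretches from the odd-numbered chromosomes were aligned on the word. A consensus of 18 bases resulted, with 16 positions at which 1 base was found in at least 60% of the stretches. The 23 stretches from other chromosomes, with 1 of these chromosomes left out, gave a longer run of 35 bases, 32 of them fixed. Both sets held the word and were aligned on it, so its bases are the same in both by construction. Only the bases outside the word can be compared between the sets. Both consensuses are shown because every later count of Zfp58 matches rests on the first and because the second came from other peaks. Capitals mark the fixed bases and n any base.
Consensus from the odd-numbered chromosomes: TTGTGTCAAnTTGACAnA
Consensus from other chromosomes: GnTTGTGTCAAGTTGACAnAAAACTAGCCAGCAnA

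The following Zfp58 windows of 200 bp, centred on the summit and given on the plus strand of mm9, show the match in its setting, with the consensus match in capitals. They are 3 of the intronic or intergenic windows of highest fold with an exact match. The match lay on the minus strand at Pde4d and on the plus strand at the others.
Near AL645484.1, chr11:114433376-114433575: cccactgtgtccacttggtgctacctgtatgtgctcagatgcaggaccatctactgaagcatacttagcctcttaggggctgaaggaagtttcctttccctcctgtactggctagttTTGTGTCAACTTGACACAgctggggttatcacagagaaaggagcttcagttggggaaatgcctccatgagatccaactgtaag
Near Pon2, chr6:5254222-5254421: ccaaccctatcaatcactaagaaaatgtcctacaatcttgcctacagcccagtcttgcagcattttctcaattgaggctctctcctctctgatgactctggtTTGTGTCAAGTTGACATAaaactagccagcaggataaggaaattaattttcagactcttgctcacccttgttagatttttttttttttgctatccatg
Pde4d, chr13:110492202-110492401: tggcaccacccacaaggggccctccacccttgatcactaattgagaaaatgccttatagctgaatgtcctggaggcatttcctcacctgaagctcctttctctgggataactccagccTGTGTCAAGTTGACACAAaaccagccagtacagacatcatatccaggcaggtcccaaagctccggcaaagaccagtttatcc

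The consensus was found in most Zfp58 peaks and in hardly any others. An exact match lay within the 200 bp window in 49 of 148 Zfp58 peaks (33.1%), and a match with up to 3 mismatches in 85 (57.4%). On the chromosomes that did not build the consensus, 40 of 69 peaks held a match with up to 3 mismatches (58.0%, interval 46.2 to 68.9%), beside 1 of 138 flanking windows (0.725%). None of the 136 Zfp595 windows held such a match, which allows a share of up to 2.75% by the Wilson interval. The windows of the other F9 HA KRAB-ZFPs held one in 64 of 12399 cases (0.516%). At up to 4 mismatches, 88 Zfp58 peaks (59.5%) and 657 of the 12399 other windows (5.30%) held a match. Allowing 1 more mismatch thus added few Zfp58 peaks and many other windows. Matches lay close to the summit, with a median distance of 18 bp between the middle of the match and the summit and quartiles of 6 and 28 bp.

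**Figure D1:**
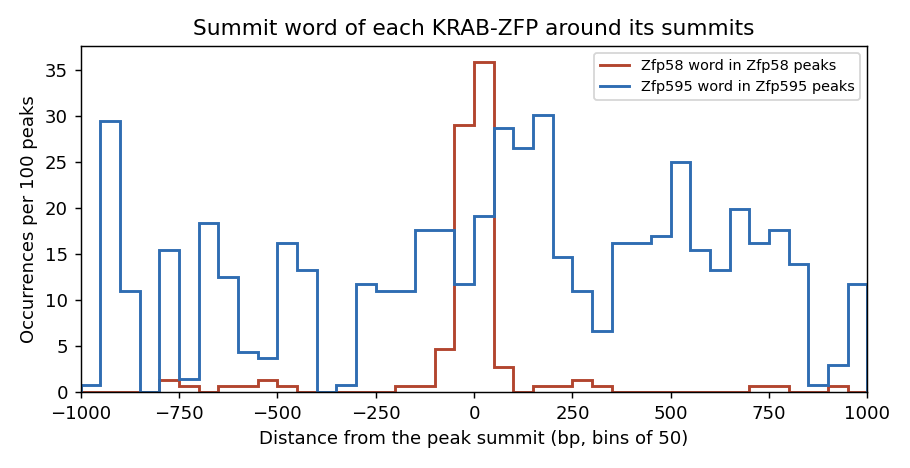
Occurrences of the summit word of Zfp58 (red) and of Zfp595 (blue) per 100 peaks of that protein, in bins of 50 bp by distance from the summit, both strands counted. The Zfp58 word stands at 29.1 and 35.8 per 100 peaks in the 2 bins beside the summit and at 4.73 or less elsewhere. One site can hold it on both strands and count more than once, and 65 of 148 Zfp58 peaks (43.9%) held it within 50 bp of the summit. The Zfp595 word, a simple repeat that can occur many times in a row, has no peak at the summit.

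The windows that held the consensus were also alike beyond it. By blastn, in which windows were joined where at least 50 bases aligned, 86 of 148 Zfp58 windows resembled another Zfp58 window (58.1%, interval 50.1 to 65.8%). The largest family comprised 82 windows, of which 81 held the consensus with up to 3 mismatches, and 4 windows with a match lay outside it. For Zfp595, 14 of 136 windows resembled another (10.3%, interval 6.23 to 16.5%), and the largest family comprised 5. No Zfp58 window resembled a Zfp595 window. Members of a family are copies of related sequence, so the peaks that share the word are not independent of each other. Of the 85 peaks with a match, 68 had a median exact copy number of 1 over the 24-base words of the window. This median covers the whole window. How far the aligned parts of the family differ was not measured. Copies of identical sequence, counted as a median of at least 10 copies, made up 6 of 148 Zfp58 windows (4.05%, interval 1.87 to 8.56%) and 5 of 136 Zfp595 windows (3.68%, interval 1.58 to 8.32%). Their difference of 0.38 percentage points had a 95% Newcombe interval from -4.75 to 5.35. The other F9 HA KRAB-ZFPs ranged from 0 to 77.6% with a median of 5.34%, which places Zfp58 and Zfp595 21st and 23rd of 30. At a minimum of 2 copies the shares were 17.6% and 7.35%, a difference of 10.2 points (interval 2.47 to 17.9).

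The genome held far more copies of the consensus than Zfp58 peaks. Exact matches numbered 15853, and 49 of them lay in a Zfp58 window (0.309%, interval 0.234 to 0.408%). Sites with 1 mismatch lay in a window in 16 of 16143 cases (0.0991%), those with 2 in 14 of 19330 (0.0724%) and those with 3 in 7 of 50898 (0.0138%). The intervals of sites with 1 and 2 mismatches overlapped (0.0610 to 0.161% and 0.0431 to 0.122%), and that of exact sites (0.234 to 0.408%) lay above both. Part of this was built in, since the consensus came from peaks on the odd-numbered chromosomes. On the chromosomes that took no part in it, 21 of 8246 exact sites lay in a window (0.255%, interval 0.167 to 0.389%), beside 6 of 8442 with 1 mismatch (0.0711%, interval 0.0326 to 0.155%), 10 of 9881 with 2 (0.101%, interval 0.0550 to 0.186%) and 3 of 26502 with 3 (0.0113%, interval 0.00385 to 0.0333%). There the interval of exact sites lay above those for 1 and 3 mismatches and overlapped that for 2. Reads that mapped equally well to several copies had been placed at 1 of them at random, and the part of this in the low shares was not tested.

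**Figure D2:**
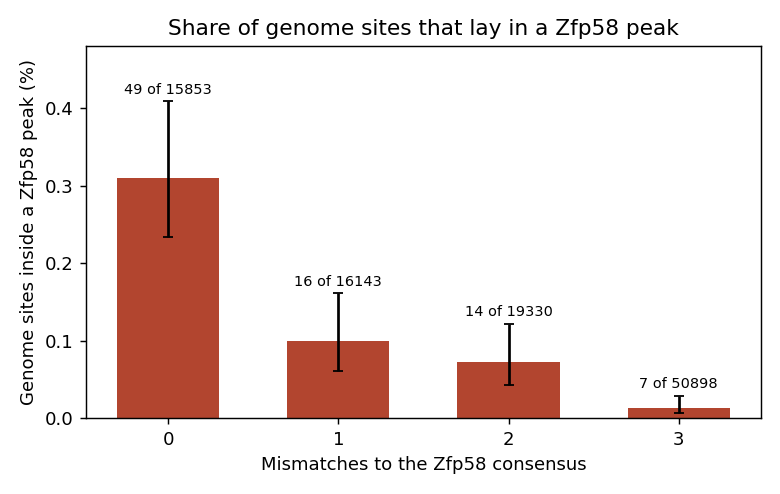
Share of genome sites inside a 200 bp Zfp58 window, in percent, by the number of mismatches to the 18-base consensus, with the 95% Wilson interval and the counts over each bar. All chromosomes are pooled, those that built the consensus included, and the share is 0.309% for exact sites and 0.0138% for sites with 3 mismatches.

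To describe the exact sites inside a Zfp58 window, 8-base words within 100 bp to either side were compared between sites inside and outside a window. The odd-numbered chromosomes were again used first. A site outside had no called peak, which does not show that it was unbound. The word with the largest excess was CTCCAGCC, with the reverse complement GGCTGGAG. It lay beside 12 of 28 sites inside a window (42.9%) and 509 of 7579 sites outside (6.72%). On the chromosomes that took no part in the choice, it lay beside 8 of 21 sites inside a window (38.1%, interval 20.8 to 59.1%). Outside, the word lay beside 546 of 8108 sites (6.73%, interval 6.21 to 7.30%). The Pde4d window shown above holds it directly before the match. Within the 200 bp windows, the word was found in 19 of 49 Zfp58 peaks with an exact match (38.8%, interval 26.4 to 52.8%), in 1 of 36 with 1 to 3 mismatches (2.78%), in 1 of 63 with more mismatches (1.59%) and in 256 of the 12399 windows of the other F9 HA KRAB-ZFPs (2.06%). The 49 peaks include those of the odd-numbered chromosomes, on which the word was chosen, so only the 8 of 21 above is a held-out count. In these counts the word marked part of the copies with an exact match and not the remaining Zfp58 peaks.

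The 63 Zfp58 peaks with more than 3 mismatches shared no such word. The best word of this subset, chosen on 34 peaks, was found in 2 of 29 held-out peaks (6.90%) and in 3.45% of their flanking windows. These peaks included 11 within 1 kb of a transcript start (17.5%), beside 5 of 85 among the peaks with a match (5.88%). Their median GC content was 49.0%, beside 45.0% for the peaks with a match.

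The 3 Zfp58 peaks of highest fold were of this kind, but 13 of the 25 highest held a match with up to 3 mismatches. The deposited fold enrichment over local background had a median of 26.88 and a range of 20.02 to 99.84. The peak of highest fold, 99.84 with 428 tags, had no gene within 50 kb and a deposited false discovery rate of 100%, the highest of the Zfp58 list. It also had the highest score, which rises as the p of a peak falls. The rate was thus highest where fold and score were highest, and it does not rank single peaks as these do. The next Zfp58 peak, with a fold of 81.63, 340 tags and a rate of 50%, lay in an intron of Ndufaf2, which encodes an assembly factor of respiratory complex I. Its window is shown because it consists of a short tandem repeat and holds no match with fewer than 8 mismatches.
Ndufaf2, chr13:108857069-108857268: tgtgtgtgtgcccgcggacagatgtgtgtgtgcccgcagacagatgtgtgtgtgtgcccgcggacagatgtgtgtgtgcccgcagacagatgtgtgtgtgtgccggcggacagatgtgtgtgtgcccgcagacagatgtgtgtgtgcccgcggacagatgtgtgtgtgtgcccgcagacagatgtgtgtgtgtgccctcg

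The third peak, with a fold of 57.6, lay 12798 bp from Kif5b, which encodes a kinesin heavy chain. Among the next peaks, folds of 47.36 were deposited for a peak in a coding exon of Zfp777, itself a zinc finger gene, and for one 142 bp from the transcript start of Cxadr, which encodes the coxsackievirus and adenovirus receptor. Another peak with this fold had no gene within 50 kb. Folds of 46.08 were deposited for peaks in the UTR of Prkar1a, a regulatory subunit of protein kinase A, near AL645484.1 and in an intron of Enox1. Of the 10 peaks of highest fold, 2 held the consensus with up to 3 mismatches, beside 7 of the 10 of lowest fold, and over 25 peaks at each end the numbers were 13 and 14. The median fold was 26.24 with a match and 26.88 without one, so the fold did not separate the peaks with a match from the others.

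**Figure D3:**
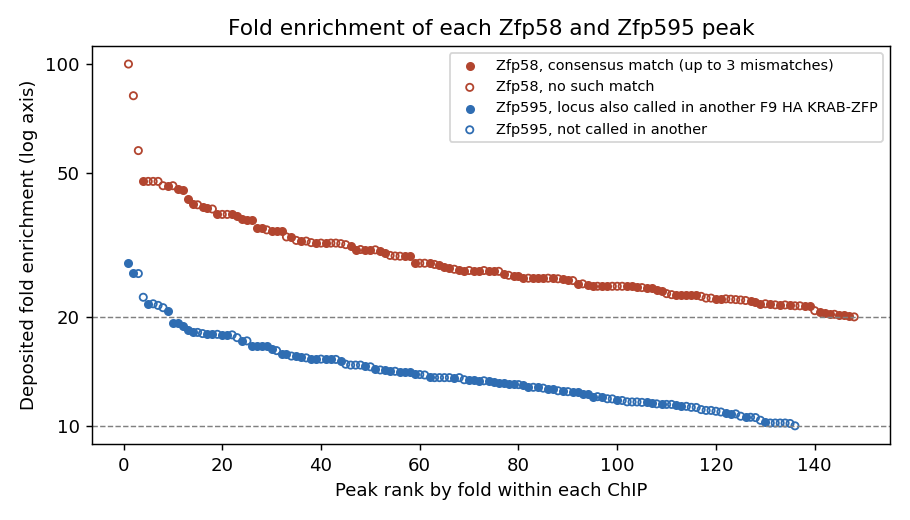
Deposited fold enrichment of every Zfp58 peak (red) and Zfp595 peak (blue) on a log axis, ranked within each ChIP. Dashed lines mark the thresholds of 20 and 10, and the peaks of each protein end at its own threshold. Filled points are Zfp58 peaks with a consensus match and Zfp595 peaks at a locus found for another F9 HA KRAB-ZFP. The 3 highest Zfp58 points, from 57.6 to 99.84, are open.

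The Zfp595 peaks had lower folds than the Zfp58 peaks, under a lower threshold, and no common sequence was found in them. Their fold had a median of 13.52 and a range of 10.02 to 28.16, and their tags per peak had a median of 42.5, beside 68.0 for Zfp58. The threshold on fold was 20 for Zfp58 and 10 for Zfp595, both at a p under 1e-10, so the lower ends of these ranges were set by the authors. Under the stricter threshold for both, 148 Zfp58 and 9 Zfp595 peaks remained. The false discovery rate deposited per peak, which compares ChIP and control, ordered the lists the other way. It ranged from 6.12 to 100% in Zfp58, with no peak at or under 5%, and from 0.92 to 100% in Zfp595, where 118 of 136 peaks (86.8%) lay at or under 5%. Over the other F9 HA KRAB-ZFPs this share had a median of 87.3% and a range of 0 to 100%, so that of Zfp595 was ordinary. Gm13150, Zfp273, Zfp456, Zfp458 and Zfp933 had no peak at or under 5% either. Both peak numbers were under the median of 192.5 over the other F9 HA KRAB-ZFPs, which ranged from 67 to 1812 under their differing thresholds.

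The summit word of Zfp595, ACACACAC, was found in 5 of 76 held-out peaks (6.58%, interval 2.84 to 14.5%) and in 6 of 152 flanking windows (3.95%), so the interval at the summit included the flanking share. In the 69 Zfp595 peaks at loci found for another protein, the best word was found in 0 of 37 held-out peaks, which allows a share of up to 9.41% by the Wilson interval. No sequence shared by the Zfp595 summits was thus detectable with words of 8 bases.

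Many Zfp595 loci were instead loci of other KRAB-ZFPs. Windows that overlapped by at least 25% were counted as 1 locus. By this measure 69 of 136 Zfp595 peaks (50.7%, interval 42.4 to 59.0%) overlapped a peak of at least 1 other F9 HA KRAB-ZFP, and 4 of 148 Zfp58 peaks (2.70%, interval 1.06 to 6.74%). The difference of -48.0 percentage points for Zfp58 against Zfp595 had a 95% Newcombe interval from -56.5 to -38.8. Among the 30 proteins Zfp595 ranked 6th and Zfp58 27th, and the other F9 HA KRAB-ZFPs ranged from 0.629 to 65.2% with a median of 23.8%. Zfp58 and Zfp595 shared no locus with each other, as did 239 of the 435 pairs of F9 HA KRAB-ZFPs. Their nearest summits lay 5846 bp apart, the only Zfp58 summit within 10 kb of a Zfp595 summit.

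**Figure D4:**
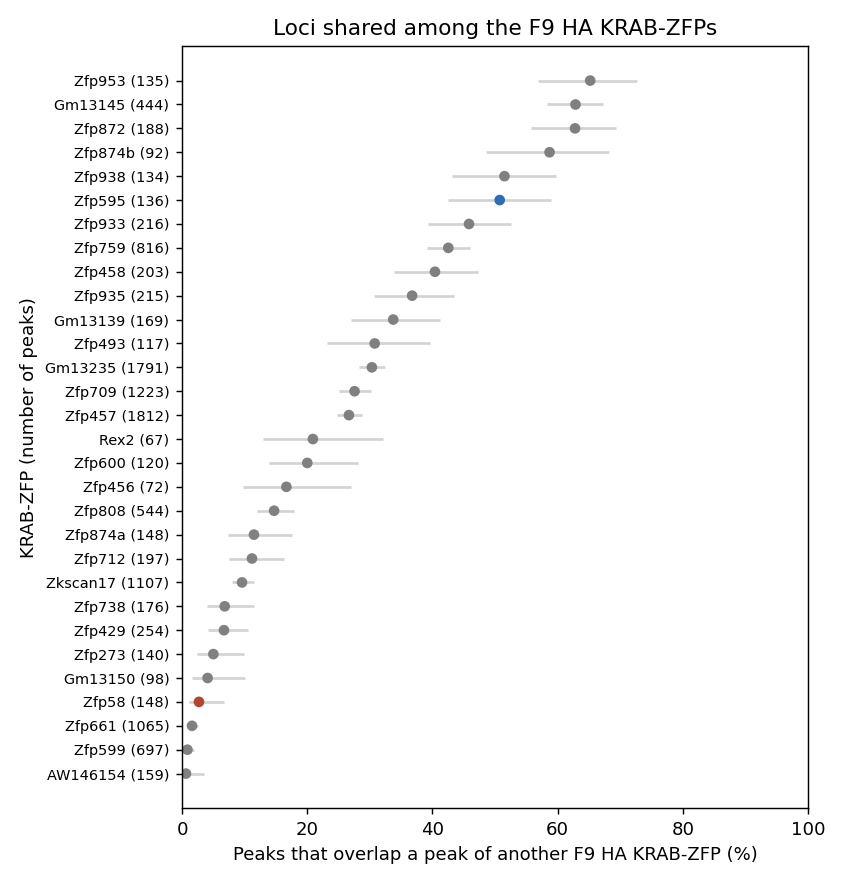
Share of the peaks of each of the 30 F9 HA KRAB-ZFPs that overlap a peak of another of them by at least 25%, in percent with the 95% Wilson interval, and the number of peaks in parentheses. Zfp595 (blue) stands at 50.7% and Zfp58 (red) at 2.70%.

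The partners of Zfp595 numbered 15 of the 29 possible. Zfp709 shared 22 loci, which were 16.2% of the Zfp595 list and 1.80% of the Zfp709 list. Gm13235 and Zfp457 shared 19 each (14.0% of the Zfp595 list), which were 1.06% and 1.05% of their own lists. Zfp709, Gm13235 and Zfp457 were called at the loosest thresholds and had the longest lists, with 1223, 1791 and 1812 peaks. With a score over 100 and a fold over 10 in all samples, 56 Zfp595 loci were shared with another protein. Zfp759 and Zfp935 shared 16 each (11.8%), which were 1.96% and 7.44% of theirs, and Gm13145 shared 14 (10.3%), or 3.15% of its list. The Jaccard index, the shared loci over the loci of either protein, was highest with Zfp935, at 0.0478, the 11th largest of the 435 pairs. The genes of Zfp457, Zfp759 and Zfp935 lie on chromosome 13 as that of Zfp595 does, whereas those of Gm13235 and Gm13145 lie on chromosome 4 and that of Zfp709 on chromosome 8. Of the 69 loci, 36 were shared with 1 other protein, 18 with 2 and 15 with 3 or more. Outside this set of samples Zfp595 shared 8 loci with the 18 FLAG-tagged KRAB-ZFPs of F9 EC cells, 1 with the 10 HA samples aligned by Bowtie2 and 0 with the 9 ES samples, which held 20728, 10478 and 9122 peaks. For Zfp58 these numbers were 5, 0 and 0.

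The loci with the most partners included simple repeats and other sequence, and 3 of them are shown to give their composition. No part is in capitals, since no shared stretch was found.
Slit1, chr19:41707720-41707919: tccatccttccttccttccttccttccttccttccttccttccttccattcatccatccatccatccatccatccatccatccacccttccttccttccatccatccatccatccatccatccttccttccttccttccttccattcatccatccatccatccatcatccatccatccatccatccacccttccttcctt
Intergenic, nearest gene Gm1631, chr2:71492747-71492946: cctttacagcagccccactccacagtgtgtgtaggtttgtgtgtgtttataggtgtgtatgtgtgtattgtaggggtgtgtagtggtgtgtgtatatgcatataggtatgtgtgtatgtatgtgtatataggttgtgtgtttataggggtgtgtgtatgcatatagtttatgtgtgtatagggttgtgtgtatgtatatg
Near Tm4sf5, chr11:70317810-70318009: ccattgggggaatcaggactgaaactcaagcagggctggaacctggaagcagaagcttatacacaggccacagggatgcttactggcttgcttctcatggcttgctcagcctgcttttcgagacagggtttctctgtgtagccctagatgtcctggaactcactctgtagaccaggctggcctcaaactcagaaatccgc

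The first, in an intron of Slit1, a gene for a secreted axon guidance protein, was found for Zfp595 with a fold of 26.41 and for 7 others with folds from 22.43 in Zfp457 to 43.41 in Zfp759. The second, 64627 bp from the nearest annotated gene, was found for Zfp595 with a fold of 20.73 and for 7 others with folds from 10.97 in Zfp457 to 24.57 in Zfp938. The third, 836 bp from Tm4sf5, which encodes a tetraspanin-like membrane protein, was found for Zfp595 with 15.31 and for 6 others with folds from 10.8 in Zfp457 to 20.39 in Zfp938. At each of them Zfp595 was neither the highest nor the lowest. The median fold of Zfp595 was 14.08 at the 69 shared loci and 12.8 at the 67 others, with ranges of 10.25 to 28.16 and 10.02 to 26.37. A transcript start was found within 1 kb at 8 of the 69 shared loci (11.6%) and at 1 of the 67 others (1.49%). The 4 shared Zfp58 loci included an intronic one in Cdc42ep5, found with a fold of 39.74 in Zfp58 and 52.6 in Zfp808 with summits 1 bp apart, and one 3480 bp from Gm14414, with folds of 38.4 and 33.52. The signal of the HA control ChIP at these loci was not analysed here, and its part in the sharing was not tested.

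The Zfp595 peak of highest fold, at 28.16, lay 805 bp from Etnk2, an ethanolamine kinase gene, and was shared with Zfp709. Slit1 followed. The third, with 26.37, lay 13006 bp from AC134910.1 and had a false discovery rate of 100%, although its score of 793 was the highest of the Zfp595 list. Peaks with folds of 22.68 to 19.2 lay near Gm5607, 1884 bp from Gpsm1, a modulator of G protein signalling, 10877 bp from B4galt1, a galactosyltransferase gene, near Gm16994, 7787 bp from Trp53inp2, which takes part in autophagy, and in an intron of Osbpl11, an oxysterol-binding protein gene. The Gpsm1 locus was shared with Gm13145 and Zfp429, and the Osbpl11 locus with Gm13145, Gm13235, Zfp759 and Zfp872.

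By position, the Zfp58 summits lay more in introns and near transcript starts than the Zfp595 summits, but only part of these differences exceeded counting error. Introns held 73 Zfp58 summits (49.3%) and 59 Zfp595 summits (43.4%), a difference of 5.94 points (Newcombe interval -5.61 to 17.3). The Zfp58 share was the second largest of the 30 proteins. Summits between genes numbered 65 (43.9%) and 75 (55.1%), a difference of -11.2 points (interval -22.4 to 0.40). Coding exons held 4 and 2 summits and UTRs 5 and 0. A transcript start was found within 5 kb of 50 Zfp58 summits (33.8%) and 31 Zfp595 summits (22.8%), a difference of 11.0 points (interval 0.47 to 21.1).

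A distance of 1 kb or less to a transcript start was found for 16 Zfp58 summits (10.8%, interval 6.76 to 16.8%) and 9 Zfp595 summits (6.62%, interval 3.52 to 12.1%), and the difference of 4.19 points had an interval from -2.62 to 11.0. The other F9 HA KRAB-ZFPs ranged from 1.49 to 48.6% with a median of 6.52%. The Zfp58 genes of highest fold were Cxadr and Prkar1a, then Zfp760, another zinc finger gene, with a fold of 38.4 at 4 bp from the start, Accs with 32.0, Blvra, which encodes biliverdin reductase, with 30.42, Abcf3 with 29.44, Polr3k, a subunit of RNA polymerase III, with 26.88, Col8a2, a collagen gene, also with 26.88, Lpcat1, a phospholipid acyltransferase gene, with 24.7, and C430039J16Rik with 24.7. None of these 16 loci was shared with another F9 HA KRAB-ZFP. The 9 Zfp595 genes were 3830408C21Rik with a fold of 18.14, Gm16211 with 16.32, Akt2, a kinase of insulin signalling, with 15.53, Tm4sf5, AL772271.3 with 13.27, Igll1, a surrogate light chain gene of B cell precursors, with 12.79, SNORA70 with 11.57, Gm11717 with 10.61 and Tmco2 with 10.56. All but the Tmco2 locus were shared with at least 1 other F9 HA KRAB-ZFP, beside 50.7% of all Zfp595 peaks.

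By chromosome, the highest ranks of Zfp595 were on chromosomes 8 and 2. Chromosome 8 held 20 of its 136 peaks (14.7%, interval 9.73 to 21.6%) and chromosome 2 held 18 (13.2%, interval 8.54 to 20.0%), both the largest share among the 30 proteins. The others reached at most 11.1% and 11.96%, which both intervals include. On every chromosome some protein of the 30 ranks first, so a first rank alone sets none apart. These peaks were spread out, with no Zfp595 summit within 10 kb of another. They were not mainly shared loci, since chromosomes 2 and 8 held 16 of the 69 shared loci (23.2%) and 22 of the 67 others (32.8%). The largest share of Zfp58 against the other proteins was on chromosome 12, with 11 peaks (7.43%, interval 4.20 to 12.8%). The others reached at most 6.76% there, also within the interval. Between Zfp58 and Zfp595 no chromosome differed beyond the Newcombe interval, that of chromosome 8 being -14.3 to 0.84 points.

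**Figure D5:**
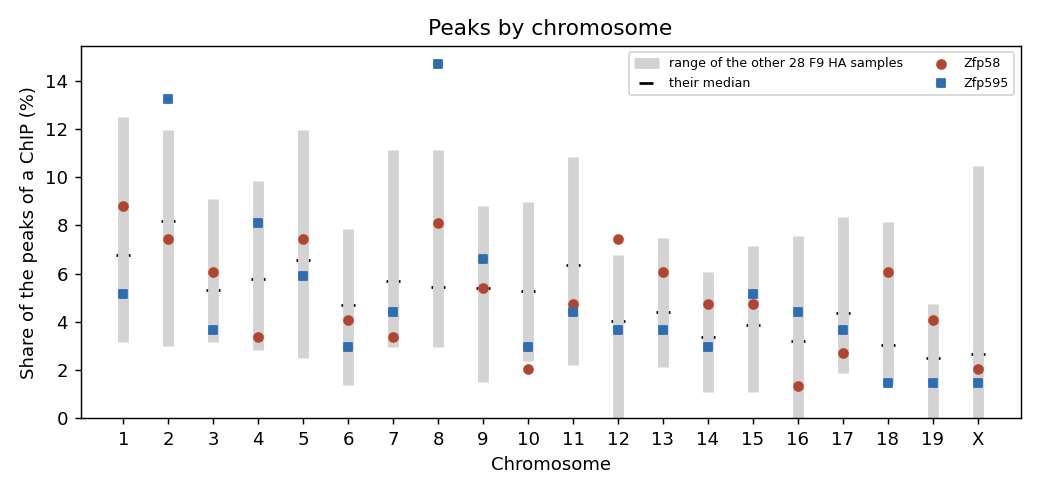
Share of the peaks of Zfp58 (circles) and Zfp595 (squares) on each chromosome, in percent, over the range (grey) and median (dash) of the other 28 F9 HA samples. Zfp595 lies above the grey range on chromosomes 2 and 8, and Zfp58 on chromosome 12.

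The peaks were also set beside the genes of the pair themselves and beside gene lists. In mm9 the Zfp595 gene spans chr13:67413934-67433496 and the Zfp58 gene chr13:67591103-67627087, both on the minus strand. Chromosome 13 held 9 Zfp58 and 5 Zfp595 peaks, none in either gene, and the nearest lay 6012913 bp from Zfp58 and was itself a Zfp58 peak. No peak lay within 10 kb of any of the 16 zinc finger cluster genes of chromosome 13 that were themselves assayed, but only 2 of the 12399 peaks of the other F9 HA KRAB-ZFPs did (0.0161%), so the count of 0 sets neither protein apart. A wider list held 403 annotated genes whose symbols start with Zfp, Zkscan, Zscan, Zik, Rex2 or Znf. Zinc finger genes with other symbols, such as Gm or Rik names, were not counted. Of this list, 3 Zfp58 peaks (2.03%) lay within 10 kb of Zfp36l1, Zfp760 or Zfp777, and 2 Zfp595 peaks (1.47%) of Zfp534 or Zfp324. The share was 1.18% for the peaks of the other proteins, and counts this small do not separate them from that share. Of the KAP1 machinery, Chd4, the remodeller of the NuRD complex, held a Zfp595 peak in a coding exon with a fold of 10.02, the lowest of the list. Among pluripotency genes 1 Zfp595 peak lay within 10 kb of Nanog, with a fold of 11.52, and among germline genes 1 Zfp58 peak lay in an intron of Tdrd9, a helicase of the piRNA pathway, with a fold of 22.29. No peak of either protein lay near an imprinted gene of the list. The same lists took 0.0726%, 0.0645%, 0.0403% and 0.0565% of the other peaks, so 1 peak of 136 or 148 is too few to set against them.

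Compared as a pair, Zfp58 and Zfp595 were not separated from the other F9 HA KRAB-ZFPs in any of 5 measures compared over samples, by a two-sided exact permutation test of 2 against 28 proteins with Benjamini-Hochberg adjustment. The mean log10 peak number was 2.15 for the pair and 2.42 for the others (exact permutation p = 0.45). The mean log10 of the median fold was 1.28 and 1.34 (exact p = 0.70). Folds and peak numbers depend on the threshold of each sample, 20 for Zfp58 and 10 for Zfp595. These 2 measures therefore compare calling settings as well as proteins. The mean share of windows in at least 10 copies was 3.87 and 13.3% (exact p = 0.50). The mean share near a transcript start was 8.71 and 10.4% (exact p = 0.93), and the mean of the median GC content 46.8 and 46.4% (exact p = 0.99). The adjusted p of the exact permutation tests was 0.99 for each, and the smallest p that 435 splits allow is 0.0046. With 2 proteins in 1 group, such a result does not show that they are alike.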

How the data were processed

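The authors mapped ChIP-seq reads to mm9 with Bowtie, placing reads with several equal positions at 1 of them, and called peaks per sample with MACS 1.4.2, without pooling. They deposited each peak as a 200 bp window with its summit, called width in base pairs, tags as a raw count, a score (10 times the negative log10 of p), the fold enrichment as a ratio and a false discovery rate in percent. The labelled thresholds truncate the values from below. The folds of Zfp58 and Zfp595 start at theirs, and the lowest scores, 152.72 and 122.53, lay above that for p. Total library sizes were not used, and the depth is unknown here. The table held 1 name with 244 peaks that matched no label, and these were left out. The members and lists were chosen with earlier results of these data known.

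Windows were read from NCBIM37 with pysam 0.24.0 and annotated with gencode vM1 at the summit. Exact copy numbers of 24-base words, summit words (8 bases, 50 bp to either side, against windows at 500 bp), overlaps (at least 25%, or 50 bp) and families (blastn 2.17.0, e-value 1e-10, with low-complexity masking) were computed. Shares carry 95% Wilson intervals, and differences of shares Newcombe intervals. Permutation tests used scipy 1.17.1. The code was tested on simulated data. Named genes hold, or are nearest within 50 kb to, the 10 peaks of highest fold of each protein, have a transcript start within 1 kb of a summit (the 10 of highest fold), or belong to a list and lie within 10 kb of a peak. The shared loci named, the subsets by consensus match, the word beside genome sites and the split of these sites by chromosome were chosen after the values were seen. Alternatives were common thresholds, a limit on the false discovery rate, other copy, distance, overlap and word settings, and C-terminally tagged samples alone. Protein sequences and repeat annotation were not used here. One Zfp58 peak among the 10 of highest fold is not reported here by name or sequence.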

Additional observations from a re-analysis of the deposited data

How the results depend on the processing

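Of 65 values recomputed under an alternative, 47 stayed within the interval, side of the threshold or 1.5-fold range of the reported value, 17 moved and 1 changed sign. Under a score over 100 and a fold over 20 in all samples, Zfp595 kept 9 peaks with a median fold of 21.8, a multi-copy share of 22.2%, a share within 1 kb of a transcript start of 0%, 4 shared loci and a held-out word share of 0% of 6 peaks, and Zfp58 had 2 shared loci. The smaller number of peaks follows from the threshold itself. At a false discovery rate of at most 5%, Zfp58 kept 0 peaks, so its other values and the pair tests could not be computed there. The multi-copy share of Zfp58 was 17.6% at 2 copies and 1.35% at 100, and that of Zfp595 was 0.74% at 100. Within 5 kb of a transcript start the shares were 33.8% for Zfp58 and 22.8% for Zfp595. The held-out share of the Zfp595 word, which was no longer the reported word, was 1.32% with 7 bases, 1.32% within 25 bp, 0% with the chromosomes exchanged and 1.39% over peaks with a copy number of 1 (GTGAAGAA there and within 25 bp). The difference in GC content between the pair and the other proteins was -0.51 points with C-terminal tags only, beside 0.39. The held-out word share of Zfp58 ranged from 30.4 to 46.4% over its alternatives, which did not all measure the same word. TGTGTCAA was found again under both common thresholds and over peaks with a copy number of 1, TGACACA with 7 bases, ACTTGACAC with 9, and 2 words outside the 18-base consensus, AAACTAGC within 25 bp and ACTAGCCA with the chromosomes exchanged. Zfp58 and Zfp595 shared 0 loci in each that could be computed. No paired analysis was possible because every protein had 1 sample. Depth, chromatin controls and replicate error are not given by a peak list, which limits every absence reported.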
